A study of Mus musculus with 51 samples.

Results

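The iron handling genes described here are 9 genes that take up, store, move or export iron: Tfrc, Trf, Slc11a2, Fth1, Ftl1, Slc40a1, Slc25a28, Ireb2 and Hmox1. They were followed through every probe set whose only gene symbol is one of the 9, which gave 13 of the 22626 probe sets. Those 13 cover 7 of the 9 genes, among 12393 genes with such a probe set in all: Tfrc and Slc11a2 with 3 probe sets each, Fth1 and Slc40a1 with 2 each, and Slc25a28, Ireb2 and Hmox1 with 1 each. Trf and Ftl1 are read only by probe sets that carry several symbols (1 and 3 probe sets), so no value is given for either gene. Of the 13 probe sets, 12 passed the filter on dim probe sets in both tables, and the exception was Tfrc 1422967_a_at.

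The 51 Affymetrix arrays hold total RNA from ventral prostates of FVB mice, labelled as 8 to 10 weeks old and fed a standard diet. For AKT1 transgenic mice given RAD001 (everolimus) there were 5 arrays after 12 h, 4 after 48 h, 3 after 6 d, 4 after 9 d and 6 after 15 d. For AKT1 transgenic mice on placebo the numbers were 4 after 12 h, 5 after 48 h, 1 after 6 d, 1 after 9 d and 7 after 15 d. Wild type mice, all on placebo, had 4 arrays after 12 h, 4 after 48 h and 3 after 15 d. No wild type mouse received RAD001, so a drug difference can be read in transgenic mice only. The labels call the arrays of a group biological replicates, while neither the dose of RAD001 nor the promoter driving the transgene is given in the labels used here. The study sought to separate signs that the drug reached its target from signs that the tissue responded. RAD001 inhibits mTOR, a kinase that is activated downstream of AKT1.

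Iron circulates bound to transferrin (Trf), which cells bind with the transferrin receptor (Tfrc) and carry inwards in vesicles. The iron leaves the vesicle through DMT1 (Slc11a2), is stored in shells of ferritin heavy and light chains (Fth1, Ftl1), enters mitochondria through mitoferrins (Slc25a28 is mitoferrin 2), and leaves the cell through ferroportin (Slc40a1). Iron regulatory protein 2 (Ireb2) binds stem-loops in several of these mRNAs when iron is low, which stabilises the mRNA of Tfrc and holds back translation of ferritin, so ferritin mRNA and protein can differ. Haem oxygenase 1 (Hmox1) breaks haem down and frees its iron.

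Sequences are shown for the 2 members that passed the test under RAD001 and have a promoter window in the RefSeq table (GRCm38.p6), which holds 250 bases before and 50 bases from the annotated start site of 5 of the 9 genes. Tfrc lies on chromosome 16 from 32608896 to 32632794, and the window shown is chr16:32608646-32608945 on the plus strand. Slc25a28 lies on chromosome 19 from 43663801 to 43675006, and its window is chr19:43674832-43675131 on the minus strand. Each is written 5′ to 3′, with capitals marking ACGTG or its reverse complement, the core of the hypoxia response motif.
Tfrc: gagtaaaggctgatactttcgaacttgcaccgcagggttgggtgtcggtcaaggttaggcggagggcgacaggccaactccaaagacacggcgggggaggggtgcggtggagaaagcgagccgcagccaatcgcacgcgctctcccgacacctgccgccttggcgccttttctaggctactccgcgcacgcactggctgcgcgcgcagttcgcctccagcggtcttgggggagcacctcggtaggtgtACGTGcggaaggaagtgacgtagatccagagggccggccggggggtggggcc
Slc25a28: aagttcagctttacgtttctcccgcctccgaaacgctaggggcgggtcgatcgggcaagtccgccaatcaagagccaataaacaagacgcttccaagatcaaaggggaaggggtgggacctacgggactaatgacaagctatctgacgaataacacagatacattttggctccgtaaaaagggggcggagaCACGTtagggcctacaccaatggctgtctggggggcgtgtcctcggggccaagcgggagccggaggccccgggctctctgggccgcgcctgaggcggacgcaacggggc
In the Tfrc window ACGTG spans bases -2 to 2, counted with the start site as 0, and the overlapping Tfrc window of a later start site (chr16:32608872-32609171) holds the same copy at -228 to -224. The Slc25a28 window holds the motif on the opposite strand at -59 to -55. Searched on both strands, ACGTG is present in 19.6% of the 32851 windows of the same length. The E-box CACGTG, which contains that core, is in 7.2% of all windows, the forkhead motif GTAAACA in 3.6% and the antioxidant response motif TGACNNNGC in 12.4%. None of the last 3 is in a window of the members, and the windows of Fth1, Ftl1 and Ireb2 hold none of the 4. These matches describe letters in a window and no binding was measured.

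Intensities below are the deposited values, on a linear scale, and differences are limma log2 differences with their standard error (SE), called at an adjusted p under 0.05 over all probe sets tested (13574 in the larger table, which holds 12 h, 48 h and 15 d, and 13576 in the smaller, which holds 6 d and 9 d). Values are not set against each other between genes, because each probe set has its own brightness. Exactly 0 was listed 7575 times in the larger table. Of these, 538 belong to probe sets whose other values have a median of at least 500, and a probe set of the ubiquitous Actb is listed at 0 on 1 array against a median of 1127.8 elsewhere. A 0 was therefore treated in both ways, at the floor of 16 as for all low values and, as an alternative added after seeing the data, as missing. Among the members, 5 values of the larger table and 1 of the smaller were at 0. Over 500 zeros were found on 4 arrays, which were replicates 8 and 9 of the 15 d placebo transgenics, the 6 d RAD001 replicate 1 and the 9 d RAD001 replicate 3.

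At 15 d the arrays fell into 2 sets along the principal component that holds 45.9% of their variance. One holds 7 arrays (RAD001 replicates 1 and 2, transgenic placebo replicates 1 and 2, all 3 wild type) and the other 9 arrays, all transgenic. The labels name no batch, and the genotype at 15 d can be compared inside the set of 7 only. Averaged over 12 h, 48 h and 15 d, Akt1, the mouse gene of the transgene's kinase, was higher in transgenic placebo prostates on 1425711_a_at (0.88, SE 0.23, adjusted p = 0.00289 by limma). It did not pass on 1416657_at (0.17, SE 0.08, adjusted p = 0.0936). By time, 1425711_a_at gave 1.73 at 12 h, 1.19 at 48 h and -0.28 at 15 d, and 1416657_at gave 0.51, 0.15 and -0.15. Neither probe set was called at 15 d (adjusted p = 0.648 and 0.441 by limma). The tissue also differed in its cell markers between genotypes. The summed level of 8 luminal epithelial markers ranged from 16923 to 24393 on transgenic placebo arrays and from 14980.1 to 17717 on wild type arrays, and 4 of 8 tested rose. Smooth muscle markers summed to between 4726 and 7732 on transgenic placebo arrays and to between 9117 and 13688 on wild type arrays, and 7 of 8 fell. Fibroblast markers summed to 2683 to 5299 against 5143 to 8724, with 6 of 7 lower, in the same order of groups. Basal markers summed to 849.9 to 1705 against 1265 to 2243, with 4 of 5 lower. These counts are for the average of the 3 times. At 48 h 6 of 7 fibroblast markers were called lower and 1 higher, and 4 of 8 luminal markers higher and 1 lower. Macrophage markers, from cells that recycle iron, summed to 1456 to 2550.1 on transgenic placebo arrays and to 1762 to 2507 on wild type arrays. Averaged over the 3 times, none of the 7 tested was called by limma, and none had an unadjusted p under 0.05. At single times none was called either, and 2 had an unadjusted p under 0.05 at 12 h, 2 at 48 h and 0 at 15 d. On RAD001 arrays of the same table the sums were 15802 to 22658 for luminal, 7107 to 11397 for smooth muscle, 3648 to 7187 for fibroblast, 1028 to 2022 for basal and 1736 to 2666.5 for macrophage markers. The erythroid list was thinly covered, with 4 of 10 genes on the array and 2 tested. Slc4a1, the red cell anion exchanger, was higher in transgenic placebo prostates by 0.43 (adjusted p = 0.00804 by limma). The other erythroid marker tested, Alas2, was not called on average and was called lower at 15 d. The median of the 2 was 0.17 on average. The list's sums overlapped, at 226.9 to 337.3 against 221.8 to 328.3 in wild type. Of 2 endothelial markers tested, Cdh5 rose by 0.94 (adjusted p = 5.5e-05) and the other was not called, with a median of 0.42. That list summed to 357 to 591.4 on transgenic placebo arrays against 314.4 to 445.1 on wild type arrays. In RNA of bulk tissue, fewer cells of a type and less RNA per cell cannot be told apart. The part of these shifts in the differences below was not tested.

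Of the 12 member probe sets tested, 5 were called between transgenic and wild type placebo prostates averaged over 12 h, 48 h and 15 d, 4 higher and 1 lower, while 33.5% of all probe sets were called in that comparison, 15.1% higher and 18.4% lower. A share of 5 in 12 against that background is not a result about iron genes as a group. The members' median difference was 0.14, against -0.04 over all probe sets tested. With zeros as missing 8 were called, against a background of 40.6%. At single times 2 of 12 were called at 12 h (background 21%), 3 at 48 h (25.6%) and 1 at 15 d (21%), and with zeros as missing 5 (26.6%), 5 (31.6%) and 2 (26.9%). For RAD001 against placebo in transgenic mice 1 of 12 was called at 12 h, where 1.47% of all probe sets were, 2 at 48 h (3.45%), 1 at 6 d and 9 d together (0.803%) and 0 at 15 d (5.53%). At 15 d 2 of the 12 had an unadjusted p under 0.05, and 1 was called with zeros as missing, against a background of 6.93%. With zeros as missing the counts at the other times were 2 at 12 h (2.2%), 3 at 48 h (5.15%) and 1 at 6 d and 9 d (1.11%).

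Tfrc, the receptor that takes up transferrin iron, was higher in transgenic placebo than in wild type prostates on 1 of its probe sets when zeros were taken as missing. On Tfrc 1452661_at the transgenic placebo arrays of 12 h read 449.8, 629.9, 338 and 557, against 128, 114, 201 and 134 in wild type. All 4 transgenic arrays lay above all 4 wild type arrays. At 48 h the transgenic placebo arrays read 639, 636, 666, 704 and 378, against 280.2, 206, 228 and 215 in wild type, again without overlap. The log2 differences were 1.77 (SE 0.78) at 12 h and 1.36 (SE 0.74) at 48 h, which missed the threshold in the fit with zeros at the floor (adjusted p = 0.108 and 0.186 by limma). With zeros as missing the same differences had SEs of 0.30 and 0.28 and passed (adjusted p = 2.83e-05 and 4e-04 by limma). No array of 12 h or 48 h was at 0 on this probe set. Averaged over the 3 times the difference was 0.51 (SE 0.44, adjusted p = 0.404 by limma) with zeros at the floor and 1.18 (SE 0.17, adjusted p = 1.23e-06) with zeros as missing. With zeros still at a floor it was 0.79 with a floor of 64, 0.82 with array weights, 0.86 without arrays with over 500 zeros and 1.29 with the set of 7 arrays alone at 15 d (adjusted p = 0.0254, 0.0246, 0.0446 and 7.91e-06 by limma). The fit shares its spread over all groups, and a fit of the compared groups alone, which holds no zero on this probe set, also called both times (adjusted p = 0.00102 and 0.000434 by limma).

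On the same Tfrc probe set most RAD001 arrays lay below the placebo arrays. They read 159, 139, 158, 421 and 81.5 at 12 h, so 4 of 5 lay below every transgenic placebo array of that time and replicate 4 lay among them. At 48 h they read 179, 97.1, 108 and 121, all below all 5 transgenic placebo arrays and below all 4 wild type arrays. The difference from placebo was -1.55 at 12 h. At 48 h it was -2.27, or 4.81 times lower. Neither passed with zeros at the floor (adjusted p = 0.394 and 0.0813 by limma), and both passed with zeros as missing (adjusted p = 0.00168 and 4.4e-06 by limma). With zeros still at a floor, the 12 h difference passed with array weights (adjusted p = 0.00876). The 48 h difference passed with a floor of 64, array weights, the compared groups alone, the replicate block, the array set as a block or arrays with over 500 zeros left out (adjusted p from 0.000893 to 0.0377). At 48 h the difference between RAD001-treated transgenic and wild type prostates was -0.91, with an adjusted p of 0.518 by limma with zeros at the floor and 0.0315 with zeros as missing.

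In the separate table of 6 d and 9 d all RAD001 arrays lay below both placebo arrays. RAD001 arrays read 169, 125 and 111 at 6 d and 133, 169, 76.2 and 126 at 9 d, against 587 and 365 on the placebo arrays. The mean difference of the 2 days was -1.87 (SE 0.30, 95% interval -2.54 to -1.19), 3.65 times lower, and passed in both treatments of zeros (adjusted p = 0.0338 by limma, and 0.01 with zeros as missing). It rests on 1 placebo array a day. Leaving out either placebo array lost the call (adjusted p = 0.335 and 0.281 by limma), as did leaving out RAD001 replicate 2 or 3 of 6 d (0.0677 and 0.0905) or replicate 1 or 4 of 9 d (0.0762 and 0.0744). The difference stayed between -2.15 and -1.59 across those leave-outs.

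The reading at 15 d turns on the zeros. RAD001 arrays read 209, 239.5, 225, 173, 244 and 163, transgenic placebo arrays 604, 450.4, 415 and 251 with replicates 4, 8 and 9 listed at 0, and wild type arrays 274, 381 and 288. The 4 placebo arrays with a value all lay above the 6 RAD001 arrays. With zeros at the floor the RAD001 difference was 1.01 (SE 0.62, adjusted p = 0.374 by limma), and with the 3 arrays dropped for this probe set it was -0.99 (SE 0.27, adjusted p = 0.0193), a change of direction. Within the set of 7 arrays, which has no zero here, it was -1.22 (SE 0.44, adjusted p = 0.34). For transgenic placebo against wild type at 15 d the difference was -1.61 with zeros at the floor and 0.40 with zeros as missing, and neither passed (adjusted p = 0.129 and 0.356 by limma). The test of whether the genotype difference varies over 12 h, 48 h and 15 d called this probe set in both treatments (adjusted p = 0.0385, and 0.0434 with zeros as missing). It was the only 1 of 12 member probe sets called, in a test that called 21.3% of all, or 28.2% with zeros as missing. The 15 d array sets enter that test: with the set as a block the adjusted p was 0.347. Of 27 leave-outs of 1 array, 12 ended the call, with adjusted p up to 0.0844.

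**Figure D1:**
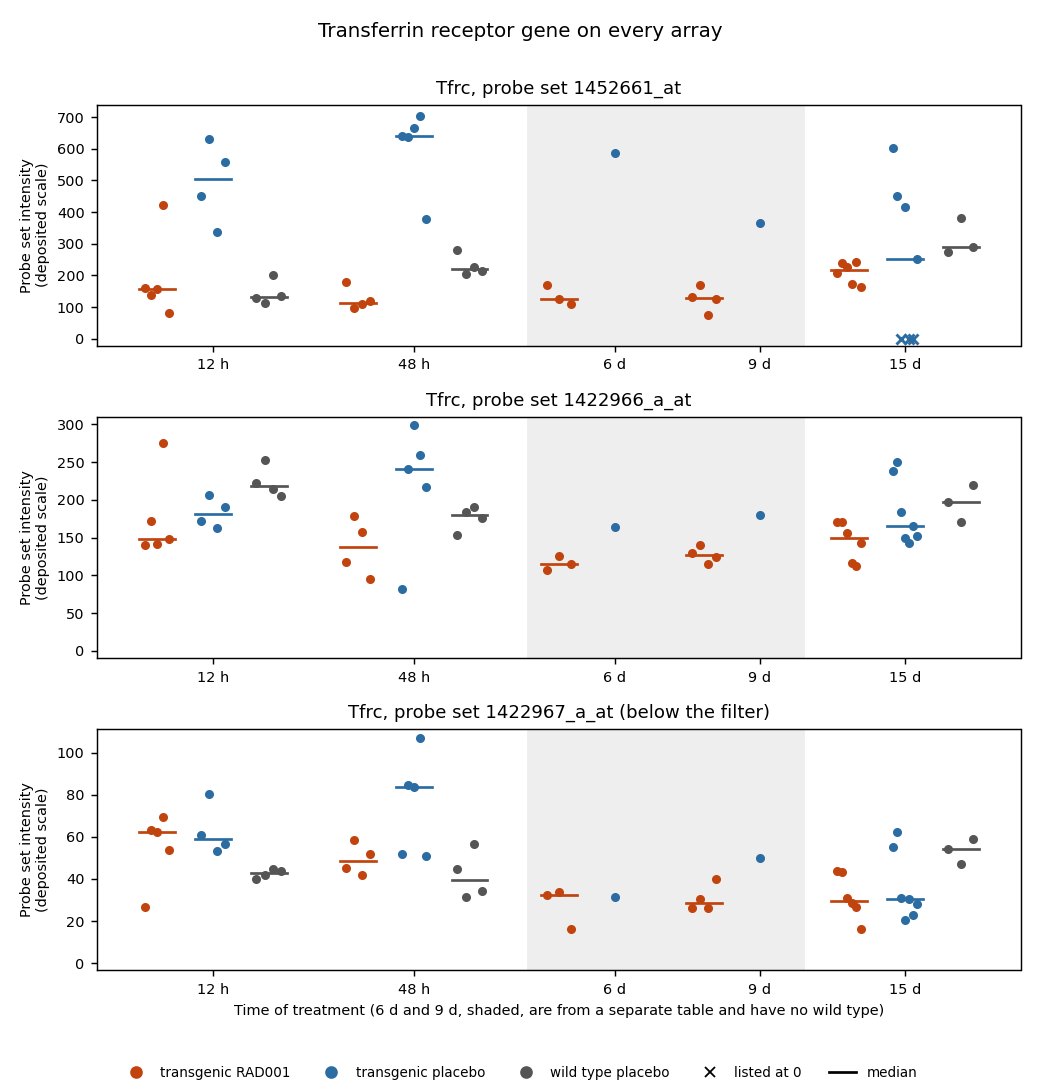
Deposited intensity (linear scale) of the 3 Tfrc probe sets on every array by time of treatment, with RAD001-treated transgenic, transgenic placebo and wild type placebo arrays as points, group medians as lines and values listed at 0 as crosses. On 1452661_at the 48 h RAD001 arrays lie between 97.1 and 179, the transgenic placebo arrays between 378 and 704 and the wild type arrays between 206 and 280.2, while on 1422966_a_at the RAD001 and transgenic placebo arrays overlap at 12 h, 48 h and 15 d.

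Neither of the other Tfrc probe sets was called over all arrays with zeros at the floor. On 1422966_a_at the genotype difference was -0.07 (SE 0.15, 95% interval -0.37 to 0.23, adjusted p = 0.755 by limma). Under RAD001 it was -0.11 at 12 h, -0.60 at 48 h, -0.50 at 6 d and 9 d and -0.33 at 15 d, all below 0 and none called (adjusted p from 0.183 to 0.983). At 48 h its RAD001 arrays read 118, 178, 157 and 95.1, and its transgenic placebo arrays 82.3, 241, 299, 259 and 217. Replicate 1 of placebo stood below all RAD001 arrays there, while the same array read 639 on 1452661_at. Without that array 1422966_a_at passed at 48 h, by -0.92 under RAD001 and by 0.53 between genotypes (adjusted p = 0.00529 and 0.0473 by limma), and with array weights the RAD001 difference was -0.82 (0.0179). At 6 d and 9 d its 7 RAD001 arrays read 107 to 140.3, all below the placebo arrays at 163.9 and 179.8. The dim 1422967_a_at ranged from 16 to 107 over all arrays and was not tested. At 12 h it read 53.2 to 80.3 on transgenic placebo arrays, all above wild type at 40 to 44.6. At 48 h it read 41.9 to 58.7 on RAD001 arrays and 50.9 to 106.9 on transgenic placebo arrays, which overlap. Wild type arrays of 48 h read 31.4 to 56.6 and also overlap the transgenic placebo arrays. At 15 d the transgenic placebo arrays read 20.5 to 62.4, with a median of 30.4, and the wild type arrays 47 to 59.1. None of these values was listed at 0. The probe sets were not compared by position in the transcript.

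The vesicle exporter DMT1 differed in the opposite sense on 1 of its 3 probe sets. On Slc11a2 1417584_at the 48 h transgenic placebo arrays read 132, 144, 138, 114 and 108, below all wild type arrays at 210.1, 185, 154 and 188. The genotype difference averaged -0.34 (SE 0.07, adjusted p = 0.000129 by limma), with -0.28 at 12 h, -0.53 at 48 h and -0.21 at 15 d, of which only the 48 h value passed (adjusted p = 0.000672). RAD001 arrays of 48 h read 161, 169, 169.5 and 182, all above the placebo arrays, a difference of 0.43 (SE 0.11, adjusted p = 0.0272 by limma). That call was lost without any 1 of 4 arrays (placebo replicate 4 or 5, RAD001 replicate 4 or 5), with adjusted p up to 0.0963. At 12 h RAD001 gave 0.16, at 6 d and 9 d 0.01 and at 15 d -0.12, and none of these passed. Slc11a2 1452078_a_at and 1426441_at differed by -0.15 and -0.03 between genotypes and by 0.05 and -0.01 under RAD001 at 48 h, none called. At 6 d and 9 d they differed by -0.47 (SE 0.19) and -0.46 (SE 0.23), with adjusted p of 0.441 and 0.615 by limma. On 1452078_a_at the 7 RAD001 arrays of those days read 142 to 210.6, below both placebo arrays at 238.5 and 230.6. On 1426441_at they read 56.7 to 94.5, below both placebo arrays at 107.3 and 96.7. DMT1 is spliced into forms with and without an iron-responsive stem-loop, and which form each probe set reads was not examined.

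Slc25a28, which carries iron into mitochondria, rose under RAD001. At 12 h the RAD001 arrays read 401, 379, 430.2, 386 and 350.2, against 213, 224, 207 and 285 on transgenic placebo arrays. Every RAD001 array lay above every placebo array, and the difference was 0.75 (SE 0.15, 95% interval 0.45 to 1.06, 1.69 times higher, adjusted p = 0.00572 by limma). The call held when each of the 9 arrays was left out in turn, with differences from 0.70 to 0.86 and adjusted p up to 0.0357. At 48 h the RAD001 arrays read 428, 393, 414 and 396, against 326, 335, 256, 264 and 241, again without overlap. The 48 h difference was 0.53 (SE 0.15, adjusted p = 0.0372 by limma) and lost the call in 7 of 9 leave-outs, without placebo replicates 3, 4 or 5 or any RAD001 array, with differences from 0.48 to 0.59 and adjusted p up to 0.0963.

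At the later times no RAD001 difference of Slc25a28 was called. At 6 d and 9 d the 7 RAD001 arrays read between 300.4 and 408, above both placebo arrays at 261 and 228, with a difference of 0.52 (SE 0.13, adjusted p = 0.188 by limma). At 15 d the 6 RAD001 arrays ranged from 271 through a median of 320.5 to 394 and the 7 placebo arrays from 261 through 296 to 439, and the difference was 0.07 (95% interval -0.18 to 0.32). Whether the RAD001 difference varies over 12 h, 48 h and 15 d was tested and not called (adjusted p = 0.157). Of the 12 member probe sets 0 were called in that test by limma, against 0.398% of all probe sets, and 3 had an unadjusted p under 0.05. With zeros as missing 0 were called as well, against 0.619% of all. Against wild type, transgenic placebo arrays were lower at 12 h (-0.49, SE 0.16, adjusted p = 0.0216 by limma), where wild type read 519, 297, 278 and 257. Without the wild type array at 519 the difference was -0.27 (adjusted p = 0.197), and leaving out transgenic placebo replicate 1, 2 or 3 also lost the call (0.0629, 0.052 and 0.0637). Over the 3 times the genotype difference was -0.20 (SE 0.09, adjusted p = 0.0717).

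**Figure D2:**
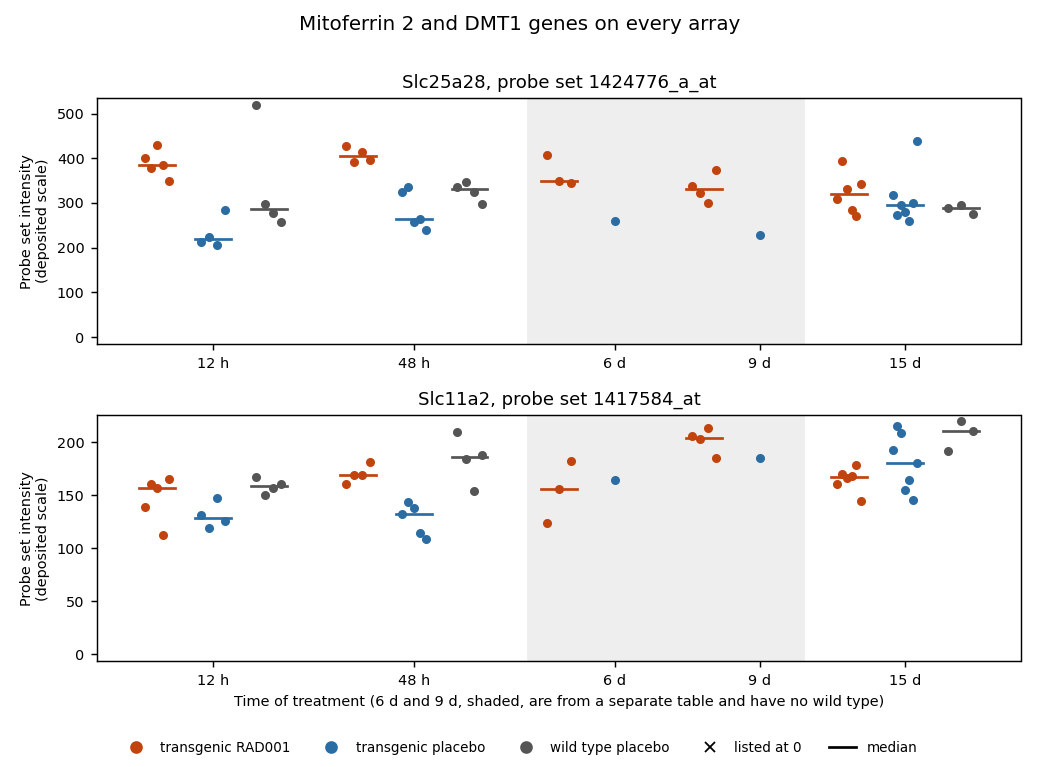
Deposited intensity (linear scale) of Slc25a28 and of Slc11a2 1417584_at on every array by time of treatment, with points for arrays and lines for group medians. For Slc25a28 the RAD001 arrays of 12 h lie between 350.2 and 430.2 and the transgenic placebo arrays between 207 and 285, and at 15 d the groups overlap.

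The storage gene Fth1 was higher in transgenic placebo than in wild type prostates, and none of its RAD001 differences was called. The Fth1 probe sets are among the brightest of the table (above 99.7% and 98.8% of all probe sets by mean log2). At 48 h Fth1 1448771_a_at read 2352, 2283, 2154, 2561 and 1916 in transgenic placebo prostates, all above 1830.0, 1824, 1592 and 1644 in wild type. Fth1 1427021_s_at read 3775, 4553, 4748, 4992 and 3296 against 2681, 3356, 3207 and 2199, with 1 transgenic array inside the wild type range. The 48 h differences were 0.38 (SE 0.09, adjusted p = 0.00242 by limma) and 0.58 (SE 0.13, adjusted p = 0.00141), and both calls held in each leave-out. Averaged over 3 times they were 0.21 and 0.26, or 1.16 and 1.2 times higher, and passed (adjusted p = 0.00303 and 0.00882). At 12 h they were 0.01 and 0.18 and at 15 d 0.24 and 0.03, none called. Quantile normalisation brought both averages to 0.12 and ended the calls (adjusted p = 0.085 and 0.117).

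Under RAD001 the ferritin heavy chain differences from placebo lay between -0.14 and 0.26 over both probe sets and all times, and none passed (adjusted p from 0.444 to 0.995 by limma). The 95% intervals reached at most 0.51 on the high side and -0.39 on the low side. At 6 d and 9 d the RAD001 arrays of 1448771_a_at read 2319.5 to 3079.7, above both placebo arrays at 2107.6 and 2311. On 1427021_s_at the RAD001 and placebo arrays of those days overlapped. At 48 h the RAD001 arrays of 1448771_a_at read 2902, 2618, 2058 and 2459, all above the 4 wild type arrays, with a difference from wild type of 0.53 (SE 0.10, adjusted p = 0.000464 by limma). On 1427021_s_at that difference was 0.47 (adjusted p = 0.0234), and it missed the threshold without wild type replicate 1 or 4 or RAD001 replicate 1 or 2 (adjusted p up to 0.12). These were the 2 of 12 member probe sets called between RAD001-treated transgenic and wild type prostates at 48 h, against 12.5% of all, and with zeros as missing 3 were called, against 17%. At 12 h and 15 d limma called 0 of 12, against 17.6% and 1.65% of all. At those times 1 and 4 had an unadjusted p under 0.05, and 3 and 0 were called with zeros as missing (background 22.9% and 3.54%).

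The export gene Slc40a1 (ferroportin) was higher in transgenic placebo prostates. On 1417061_at these read 419, 307, 75.5 and 214 at 12 h, against 82.0, 86.6, 76.1 and 77.9 in wild type, so 3 of 4 lay above the wild type range and 1 below it. At 15 d the 7 transgenic placebo arrays ranged from 115 through a median of 337 to 382, all above the wild type arrays at 77.7, 103 and 65.3. At 48 h the groups overlapped, with 105, 144, 135, 113 and 189 against 115, 136, 107 and 102. The average difference was 1.12 (SE 0.27, 2.17 times higher, adjusted p = 0.0014 by limma) and kept its call in all 27 leave-outs, between 1.01 and 1.28. Single times gave 1.41 at 12 h (adjusted p = 0.0322), 0.23 at 48 h (0.773) and 1.71 at 15 d (0.00965). The 12 h call was lost in 7 of 8 leave-outs, all but that of transgenic placebo replicate 3, with adjusted p up to 0.145 without transgenic placebo replicate 1.

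Within transgenic placebo arrays of 15 d, Slc40a1 read 164 and 115 in the set of 7 arrays that includes the wild types, and 263, 382, 369, 337 and 369 in the other set. With the array set as a block the 15 d difference was 1.03 (adjusted p = 0.311 by limma), and within the set of 7 arrays it was 0.77 (adjusted p = 0.66). The 15 d call was also lost without wild type replicate 1 or 3 (adjusted p = 0.0533 and 0.0607). On 1448566_at the average genotype difference was 0.52 (adjusted p = 0.112) with the 12 h transgenic placebo replicate 1 at 0, and 0.79 (SE 0.18, adjusted p = 0.000457) with that value missing. Its transgenic placebo arrays read 133, 122, 106, 123 and 154 at 48 h, all above 57.4, 90.2, 87.1 and 74.6 in wild type.

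No RAD001 difference of Slc40a1 was called on either probe set. On 1417061_at the differences were -0.19 at 12 h, -0.12 at 48 h, -0.05 at 6 d and 9 d and -0.58 at 15 d, with 95% intervals as wide as -1.35 to 0.18 at 15 d. The RAD001 arrays of 48 h read 378, 113, 112 and 48.8, a spread that covers the whole placebo range. At 15 d 2 RAD001 arrays stood at 318 and 287 and the other 4 between 123 and 142. On 1448566_at the RAD001 arrays of 48 h read 45.6 to 148.6 (median 70), against 106 to 154 (median 122.5) on transgenic placebo arrays. Its medians were 98.8 under RAD001 and 142.5 on placebo at 15 d. At 12 h they were 164.5 and 105.8, with 1 placebo array at 0. Ferroportin mRNA is abundant in macrophages, whose marker sums are given above.

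**Figure D3:**
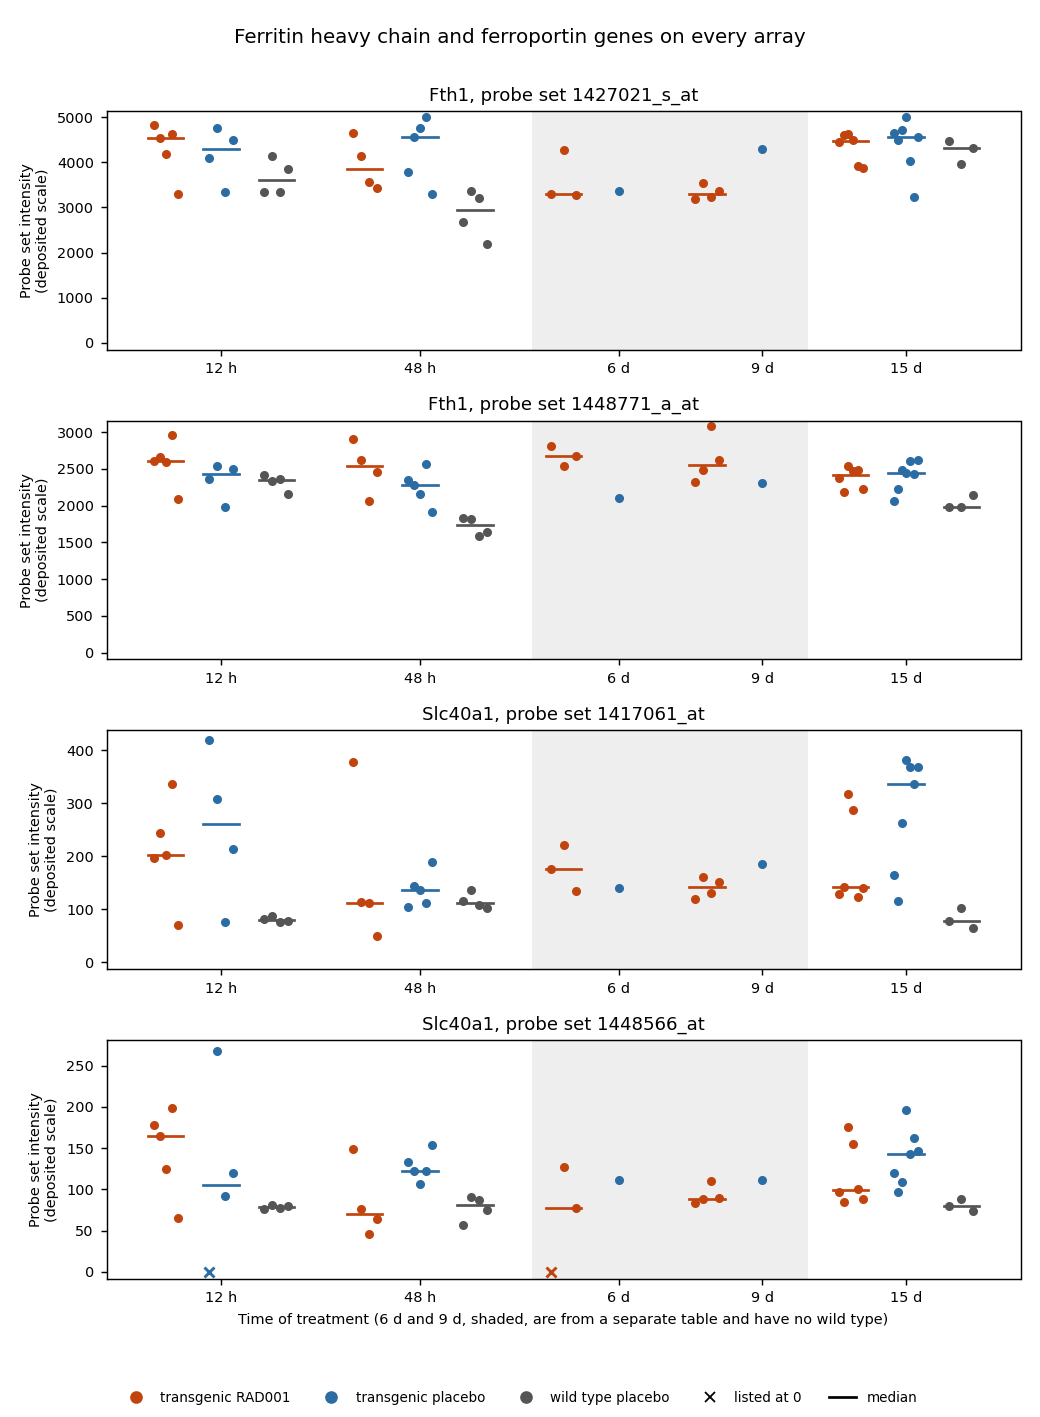
Deposited intensity (linear scale) of both Fth1 and both Slc40a1 probe sets on every array by time of treatment, with points for arrays, lines for group medians and crosses for values listed at 0. Fth1 1448771_a_at at 48 h lies between 1916 and 2561 in transgenic placebo and between 1592 and 1830.0 in wild type arrays, and Slc40a1 1417061_at at 15 d between 115 and 382 against 65.3 and 103.

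The regulator Ireb2 was modestly higher in transgenic placebo prostates, by 0.25 on average (SE 0.10, adjusted p = 0.0453 by limma). Of 27 leave-outs 19 ended that call, with adjusted p up to 0.12. The call was also lost with no filter (adjusted p = 0.0574 by limma), the compared groups alone (0.0798) or the replicate block (0.0729). Leaving out arrays with over 500 zeros ended it too (0.0632). So did the 15 d array set as a block (0.0711) and the set of 7 arrays alone (0.13). Ireb2 values overlapped at each time. At 15 d the transgenic placebo arrays ranged from 303 through 374 to 417 and the wild type arrays were 224, 305 and 269. All wild type arrays of 15 d lie in the set of 7 arrays, so genotype can be compared there inside that set only. RAD001 arrays of 15 d read from 245 through 271 to 289, all below the placebo arrays, with a difference of -0.42 (SE 0.14) that missed the threshold (adjusted p = 0.0674). Differences under RAD001 were below 0 at every time, -0.21 at 12 h, -0.46 at 48 h and -0.31 at 6 d and 9 d. None was called under the settings of the report. At 6 d and 9 d the RAD001 arrays read 222.2 to 310.3, below both placebo arrays at 328.4 and 336.4. With array weights the 48 h difference was -0.51 and passed (adjusted p = 0.0483 by limma). The 15 d difference passed in a fit of the compared groups alone (adjusted p = 0.0258 by limma) and without placebo replicate 6 (0.047).

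For Hmox1 the reading again depends on 1 value. The transgenic placebo arrays of 12 h read 322, 239.7, 287 and 281, all below 363, 481, 327 and 465 in wild type. At 48 h they read 252, 279.9, 331, 326 and 317, against 283, 345, 269 and a value listed at 0 (replicate 4) in wild type. With that 0 at the floor the average genotype difference was 0.06 (SE 0.26, adjusted p = 0.885 by limma), and with it missing -0.29 (SE 0.10, adjusted p = 0.0157). The 12 h difference of -0.52 did not pass with zeros at the floor (adjusted p = 0.48 by limma), and passed with zeros as missing (0.0178) and in a fit of the compared groups alone (0.0308). RAD001 differences lay between -0.13 and 0.10, none called, and with zeros as missing the interval at 15 d was -0.33 to 0.21.

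**Figure D4:**
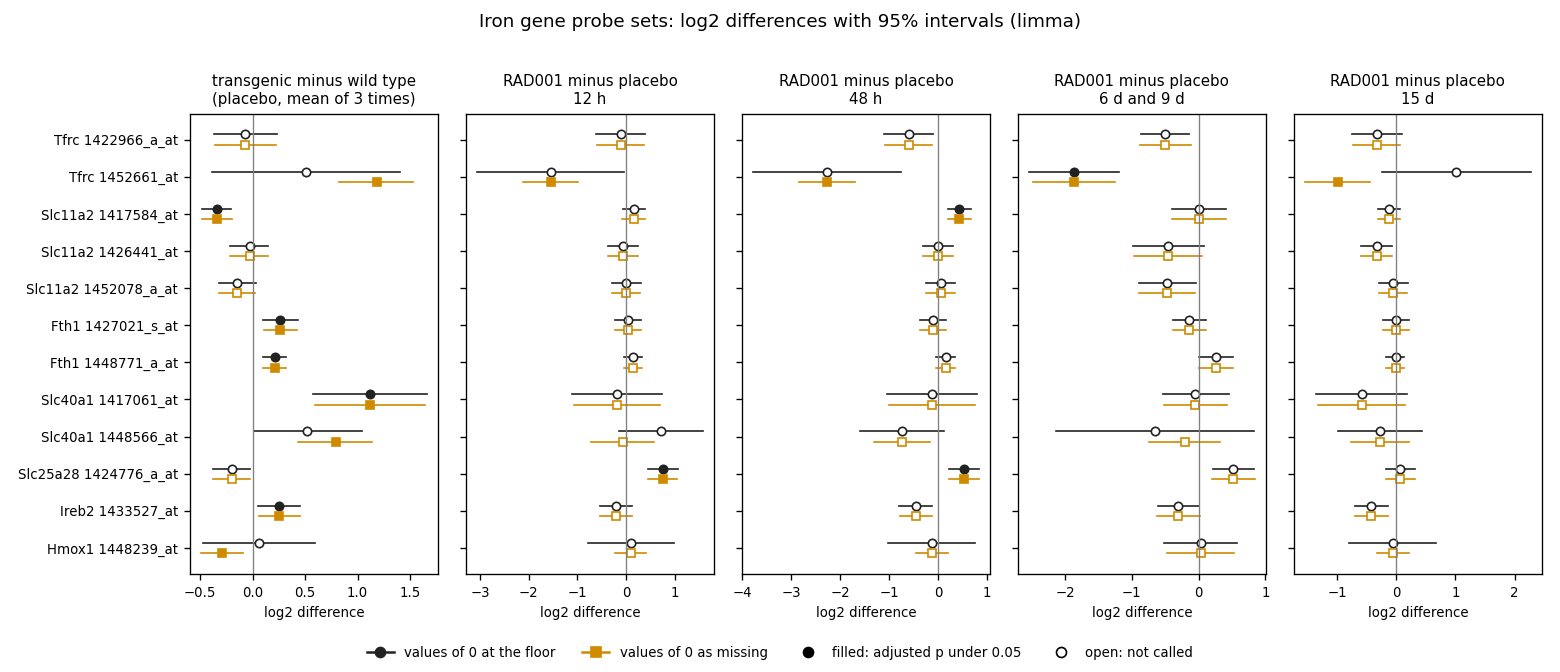
Differences on the log2 scale for the 12 member probe sets tested, with 95% intervals from limma, for transgenic minus wild type placebo (mean of 12 h, 48 h and 15 d) and RAD001 minus placebo at each time, circles with zeros at the floor and squares with zeros as missing, filled where the adjusted p is under 0.05. Tfrc 1452661_at lies at -2.27 at 48 h and -1.87 at 6 d and 9 d, and at 15 d its points lie at 1.01 and -0.99, on either side of 0.

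Other genes of iron and haem handling were counted from lists of 70 genes, of which 58 have a probe set of their own and 44 were tested (45 in the smaller table). Between genotypes 7 of the 44 rose and 12 fell, with a median of -0.08 against -0.04 over all probe sets. Of all probe sets, 15.1% rose and 18.4% fell. The metal importer Slc39a8 (ZIP8) rose by 1.43 (SE 0.14, adjusted p = 4.17e-10 by limma), and Bach1, a haem-binding repressor of Hmox1, by 0.49. The ferritin receptor Scara5 fell by 0.93, the plasma ferroxidase ceruloplasmin (Cp) by 0.61, mitoferrin 1 (Slc25a37) by 0.63 and the iron-sulphur assembly factor Isca1 by 0.59. Scara5 is known from stromal cells, and the fibroblast marker sums are given above. The part of cell composition in the Scara5 difference was not tested.

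Under RAD001 2 of the 44 list genes rose and 1 fell at 12 h, 2 rose and 0 fell at 48 h, and 2 rose and 1 fell at 15 d. Over all probe sets limma called 1.47%, 3.45% and 5.53% at those times. Isca1 rose by 0.42 at 12 h and 0.62 at 48 h (adjusted p = 0.011 and 8.78e-05 by limma), and Cp by 0.97 at 48 h and 0.76 at 15 d (adjusted p = 0.00776 and 0.00677). The iron chaperone Pcbp2 rose by 0.68 and the cytosolic iron-sulphur assembly factor Nubp1 fell by 0.56 at 12 h. The scaffold Iscu rose by 0.43 and Bach1 fell by 0.60 at 15 d. At 6 d and 9 d limma called 0 of 45, of which 4 had an unadjusted p under 0.05. Cell markers moved under RAD001 too. At 12 h 1 of 8 smooth muscle markers (Tagln) rose and 1 of 8 luminal markers (Krt8) fell. At 48 h 2 of 7 fibroblast (Dcn, Igf1), 2 of 8 smooth muscle (Cnn1, Mylk) and 2 of 5 basal markers (Krt5, Trp63) rose. Of 8 luminal markers 1 (Krt8) fell at 48 h. At 15 d 3 of 8 smooth muscle (Acta2, Tagln, Cnn1) and 2 of 7 fibroblast markers (Dcn, Pdgfra) rose. So did 1 of 5 basal (Trp63) and 1 of 7 macrophage markers (C1qa), while 1 of 8 luminal markers (Spint1) fell. At 6 d and 9 d 1 of 7 fibroblast markers (Dcn) rose. Their part in the calls of the members and of the list was not tested.

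The genes with a course most like Tfrc 1452661_at were sought over the 9 group means of the larger table, by the root mean square of the difference of centred log2 means. With zeros as missing they were Ddit4 (0.34), Fdps (0.35) and Cyp51 (0.38), beside a range of 2.27 for Tfrc itself, and with zeros at the floor Idi1 (0.38), Malat1 (0.42) and Rrm2 (0.46). For Slc25a28, with a range of 0.82, they were Syf2 (0.10), Map1lc3b (0.12) and Eps15l1 (0.12). These distances describe 9 means that share arrays and carry no test.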

How the data were processed

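The authors deposited linear intensities for 22626 Affymetrix probe sets in 2 tables. One holds 42 arrays of 12 h, 48 h and 15 d. The other holds 9 arrays of 6 d and 9 d, listed under a different array platform with the same probe sets. Neither the labels nor the file headers used here name the normalisation or the software. The tables were tested separately. Precision is limited by how many arrays a group has. Intensities under 16 were raised to 16 and log2 transformed. Probe sets whose mean lay under the 40th percentile (73.6 and 73 in intensity) were left out, as were 2 with implausible values in the larger table. All groups of a table entered 1 limma fit of group means (limma 3.58.1, R 4.3.3, eBayes with trend), with Benjamini-Hochberg adjustment over all probe sets tested and a threshold of 0.05. The fit was tested on simulated data. Gene symbols came from each platform's annotation, where 20380 probe sets have 1 symbol, 691 several and 1555 none, and promoter windows from RefSeq. The genes named are the 9 members with every single-symbol probe set, called genes of the pathway lists (at most 4 a list), Akt1, and for a member's brightest tested probe set the 3 genes of most similar course. The members and lists were chosen with earlier results of these data known. Alternatives were other floors, filters, normalisations, array weights, compared groups alone, a replicate block and each array left out in turn. Zeros as missing and the 15 d array sets were added after seeing the data. RNA came from animals the labels call biological replicates.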

Additional observations from a re-analysis of the deposited data

Results flagged for a closer look

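In groups of 4 to 10 arrays, 8 of 108 groups of member values had 1 array whose gap to its nearest neighbour exceeded Dixon's 95% limit, where chance gives about 1 in 20. Each gap is given as a share of the group's range, with gap and range taken on the log2 scale and zeros at the floor. The intensities printed beside the shares are linear, so the shares are not ratios of those intensities. For Tfrc 1452661_at, transgenic placebo replicate 5 of 48 h read 378.5 against 635.6 for the next array (0.835). On Tfrc 1422966_a_at, transgenic placebo replicate 1 of 48 h read 82.3 against 217.1 (0.752). Without that array the RAD001 difference of 1422966_a_at at 48 h was -0.92 with an adjusted p of 0.00529 by limma. For Ireb2, transgenic placebo replicate 1 of 48 h read 186.6 against 249.9 (0.754), and wild type replicate 2 of 48 h read 341.9 against 171.8 (0.865). Hmox1 was listed at 0 in wild type replicate 4 of 48 h, with 268.7 as the next value (0.919), and read 326.9 against 201.9 in RAD001 replicate 3 of 9 d (0.853). Slc25a28 read 438.8 against 318.3 in transgenic placebo replicate 10 of 15 d (0.616). Slc11a2 1452078_a_at read 194.9 against 171.5 in RAD001 replicate 1 of 9 d (0.883).

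The genotype difference of Tfrc 1452661_at varied over 12 h, 48 h and 15 d by limma's test of that interaction (adjusted p = 0.0385). The call was lost with the 15 d array set as a block (0.347), with the set of 7 arrays alone (0.329), with the replicate block (0.122), with the compared groups alone (0.0959), without arrays with over 500 zeros (0.0877) and with no filter (0.0557). Leaving out 1 array at a time gave adjusted p from 0.0111 to 0.0844. The differences were 1.77, 1.36 and -1.61 with zeros at the floor and 1.77, 1.36 and 0.40 with zeros as missing.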

How the results depend on the processing

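Counts below are of 12 member probe sets called by limma, with the value under the settings of the report in brackets. With 1 probe set per gene, 7 probe sets are left to count. Counts within 1.5 times that of the report's settings are not listed, such as 3 for RAD001 at 48 h with zeros as missing. For the mean genotype difference (5), quantile normalisation gave 3, 1 probe set per gene 3 and zeros as missing 8. At 12 h (2), no filter gave 1, array weights 4 and zeros as missing 5. At 48 h (3), 1 probe set per gene gave 1, array weights 6, the compared groups alone 5 and zeros as missing 5. At 15 d (1), quantile normalisation, median scaling, array weights and zeros as missing gave 2 each, and the replicate block, the array set as a block and the set of 7 arrays alone gave 0. For RAD001 at 12 h (1), array weights and zeros as missing gave 2 each. At 48 h (2), no filter and 1 probe set per gene gave 1 and array weights 5. At 6 d and 9 d (1), no filter, the replicate block, 6 d alone and 9 d alone gave 0. At 15 d (0), the compared groups alone and zeros as missing gave 1. For RAD001-treated transgenic against wild type at 12 h (0), a floor of 64, the compared groups alone, the replicate block and the array set as a block gave 1, array weights 2 and zeros as missing 3. At 48 h (2), 1 probe set per gene gave 1, and at 15 d (0) array weights gave 3. For genotype by time (1), array weights gave 4, and the compared groups alone, the replicate block, leaving out arrays with over 500 zeros, the array set as a block and the set of 7 alone gave 0. For RAD001 by time (0), array weights gave 1. The cause of these changes was not tested. A direction that was not called reversed and was called for Hmox1 between genotypes (-0.29 with zeros as missing, and from -0.29 without wild type replicate 4 of 48 h, the array listed at 0, to 0.20 over the other leave-outs) and for Tfrc 1452661_at under RAD001 at 15 d (-0.99 with zeros as missing). Sign changes where neither value was called were counted as unchanged.

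Leaving out 1 array at a time gave 4 to 6 calls for the mean genotype difference, 0 to 1 at 12 h, 3 to 5 at 48 h and 0 to 4 at 15 d. For RAD001 it gave 1 at 12 h, 0 to 3 at 48 h, 0 to 1 at 6 d and 9 d and 0 to 1 at 15 d. Against wild type it gave 0 to 1 at 12 h, 1 to 2 at 48 h and 0 at 15 d, and for the interactions 0 to 2 and 0. Over all probe sets the alternatives called 3222 to 5677 for the mean genotype difference, 106 to 1208 for RAD001 at 12 h, 306 to 978 at 48 h, 3 to 232 at 6 d and 9 d and 62 to 1048 at 15 d. They called 1987 to 4202 for genotype at 12 h, 2564 to 5313 at 48 h and 370 to 3647 at 15 d, and 1244 to 4552 and 14 to 206 for the interactions of time with genotype and with RAD001. Against wild type they called 1638 to 4050 at 12 h, 1284 to 2607 at 48 h and 3 to 2387 at 15 d. Array weights raised the calls over all probe sets too, with 2387 against 224 under the report's settings in the last comparison.

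Deviations from group means correlated no more for arrays of the same replicate number (median -0.01 over 125 pairs) than of different number (0 over 653 pairs). At 15 d the RAD001 and placebo arrays of the same number had -0.01 to 0.51 over 4 pairs. Both arrays of each of these pairs lie in the same 15 d array set, so pairing and array set cannot be told apart there. Not every pair was over 0.1, so the numbers were not taken as pairs. With the replicate block Tfrc 1452661_at differed by -2.23 under RAD001 at 48 h (adjusted p = 0.0259 by limma) and by -1.63 at 6 d and 9 d (0.349), and Slc40a1 1417061_at between genotypes at 15 d by 1.23 (0.193).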

Other observations

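On Slc40a1 1417061_at at 15 d, the RAD001 arrays ranged from 123 to 318 and wild type arrays from 65.3 to 103. The difference of 1.12 (SE 0.48) did not pass (adjusted p = 0.181 by limma), and at 12 h it was 1.22 (SE 0.46, adjusted p = 0.0604).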
